A study of Mus musculus with 3 samples.

Results

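The kinesin motor family was examined in 4T1 cells, an established line from a mouse mammary carcinoma, after over-expression of WISP2 (also CCN5), a matricellular protein that cells secrete. The members were all rows of the deposited count table whose symbol has the form Kif or Kifc followed by a number and, for Kif, an optional letter. This rule gave 40 of 34591 gene symbols and used no measured value. All 3 mRNA sequencing libraries belong to 1 group, WISP2 OE, and go here by the endings of their columns (C1, C2, C3), which match no sample title and carry no order. The labels' protocols describe transduction by packaged vector and puromycin selection for constructs of Wisp1, and not for the WISP2 one. The empty-vector 4T1 controls that the design text names were not analysed here, so the values describe the over-expressing cells and show no effect of WISP2. Whether separate cultures were used is not stated, so each SD and p-value measures the spread between these libraries, which may be technical.

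Library C1 had 17630755 counts in total, C2 had 67028365 and C3 had 47577315. Levels are in CPM, the counts of a gene scaled by the library total, with the mean and SD of the 3 libraries. CPM grows with transcript length, so levels of different genes were compared as CPM per kb of annotated exon. Wisp2 itself stood at 429, 384 and 454 CPM in C1, C2 and C3. The epithelial markers of 4T1 were present, with 6 of 6 at 1 CPM or more. Fibroblast markers had 0 of 6 and endothelial markers 0 of 4 at that level, with Lum and Thy1 at 0 counts. Leukocyte markers had 1 of 8 (Lyz2), with Cd3e at 0 counts, and their summed level was 14.0, 4.54 and 5.78 CPM in C1, C2 and C3. It was highest in C1, and its part in the kinesin values was not tested.

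Kinesins are motors that use ATP hydrolysis to walk along microtubules or to take microtubule ends apart. One set works in dividing cells, where it separates spindle poles, moves and aligns chromosomes and builds the central spindle for cytokinesis, and its genes are typically transcribed late in the cell cycle. Another set carries vesicles, organelles and protein complexes in non-dividing phases, in neurons, in cilia and in most other cells. Of the 40 members 13 were placed in the mitotic class, 17 in the transport class and 10 in a remaining class of cilium, Hedgehog and other or mixed roles.

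The family took a steady share of each library, at 0.286%, 0.292% and 0.282% of all counts in C1, C2 and C3. In every library 27 of 40 members reached 1 CPM, whereas 33.8% of all rows did so, and 10 of the 27 exceeded 100 CPM, against 20.1% of the genes at 1 CPM or more. The 12 mitotic members at 1 CPM or more were 12 of 13, the 12 transport members 12 of 17, and 3 of the 10 other members reached that level. The family held 5 members with 0 counts in all libraries, Kif2b, Kif1a, Kif6, Kif12 and Kif19a. Such a count leaves room for a level of 3 counts, which is 0.170 CPM for C1, 0.0448 for C2 and 0.0631 for C3, and this limit covers counting error only.

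**Figure D1:**
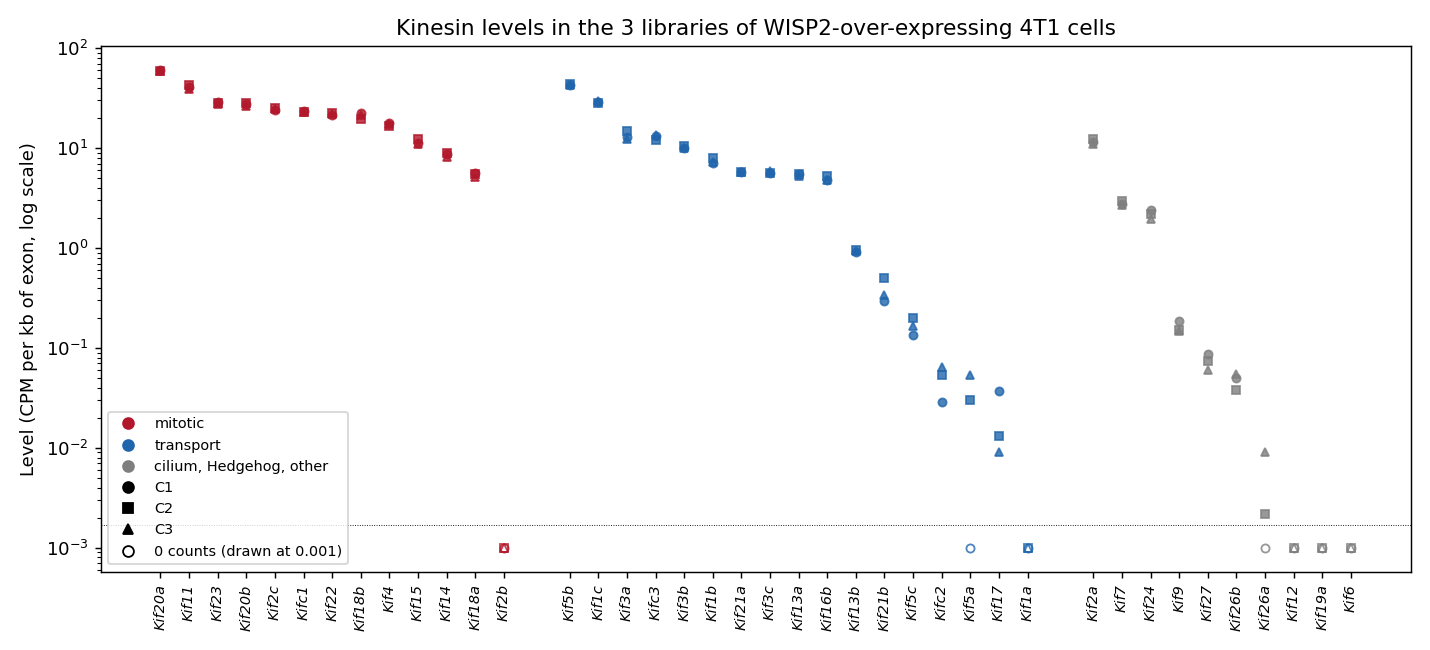
Level of each of the 40 kinesins in CPM per kb of exon (log axis), 1 point per library, ordered by mean level within the mitotic, transport and other classes. Points under the dotted line stand for libraries with 0 counts. Of the mitotic members 12 of 13 lie between 5.44 and 60.0 CPM per kb on average and Kif2b lies at 0, while the transport members spread from 0 to 43.1 CPM per kb.

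Among the motors that set up spindle poles, Kif11 was the most abundant. Kif11, the kinesin-5 motor (Eg5) that slides antiparallel microtubules and pushes the poles apart, stood at 302, 317 and 292 CPM in C1, C2 and C3. Kif15, a kinesin-12 motor that helps to hold the spindle bipolar, stood at 123, 136 and 121 CPM. Kifc1 (HSET), a minus-end directed motor that focuses poles and clusters extra centrosomes, stood at 79.6, 77.8 and 78.3 CPM. In CPM the 3 genes did not overlap in any library, and C2 was the highest library for Kif11 and Kif15 but the lowest for Kifc1. Per kb of exon the order of Kif15 and Kifc1 turned in every library. Kifc1 stood at 23.0 ± 0.278 CPM per kb and Kif15 at 11.5 ± 0.752 CPM per kb. Kif11 exceeded Kif15 by 1.82 ± 0.04 on the log2 scale per kb (3.54-fold) and Kifc1 by 0.82 ± 0.07 (1.77-fold), in 3 of 3 libraries each. Without length correction Kif11 was 2.39-fold above Kif15 and 3.86-fold above Kifc1. With the length of the longest coding transcript these values were 2.41-fold and 1.89-fold. The Kifc1 level is uncertain, since 45.8% of the 50-base strings of its longest annotated transcript also occur in transcripts of its paralog Kifc5b, which had 32.5 ± 1.04 CPM. The Kifc1 and Kifc5b counts together came to 111 ± 1.86 CPM.

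The motors of chromosome movement and of microtubule ends ranged on average from 24.6 CPM per kb for Kif2c to 5.44 CPM per kb for Kif18a, with Kif2b at 0 counts. Kif22 (Kid), a chromosome-bound motor that pushes arms toward the spindle equator, stood at 105, 110.2 and 107 CPM in C1, C2 and C3. Kif2c (MCAK), a kinesin-13 depolymerase that corrects wrong attachments at centromeres, stood at 105, 110.3 and 106 CPM. Kif4, a chromokinesin that acts in chromosome condensation and at the midzone, stood at 97.6, 92.7 and 95.5 CPM. Kif22 and Kif2c differed by less than their spread in CPM, while Kif4 lay below both in every library. In CPM the kinesin-8 genes, whose products dampen chromosome oscillation and trim microtubule plus ends, followed. Kif18b stood at 80.4, 70.0 and 77.1 CPM and Kif18a at 55.0, 54.6 and 50.9 CPM. Per kb Kif18b (21.2 ± 1.48 CPM per kb) lay above Kif4 (17.3 ± 0.440 CPM per kb) in every library. Per kb of exon Kif18b exceeded Kif18a by 1.96 ± 0.13 on the log2 scale (3.90-fold), but 1.42-fold without length correction and 1.43-fold with the length of the longest coding transcript. Kif4 lay below Kif22 by 0.34 ± 0.07, and by 1.41 with that length. Kif2c exceeded Kif2a, a related depolymerase of spindle poles and of interphase cells (74.5 ± 3.93 CPM), by 1.08 ± 0.05 (2.11-fold). Kif2b, the other kinesin-13 gene, had 0 counts, so that Kif2c was at least 318-fold higher per kb with a floor of 3 counts per library, and at least 618-fold without length correction.

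The cytokinesis motors took more of the kinesin counts than the other mitotic groups, at 26.7% ± 0.29. The share was 17.7% ± 0.40 for the pole motors and 15.3% ± 0.27 for those of chromosome movement. After division by exon length these shares were 27.9% ± 0.23, 16.8% ± 0.30 and 20.2% ± 0.34. The order of the pole and chromosome groups thus depends on the length correction. Kif20a (MKLP2), which brings the chromosomal passenger complex to the central spindle, stood at 264, 258 and 259 CPM in C1, C2 and C3. Kif23 (MKLP1), the motor subunit of centralspindlin, stood at 227, 225 and 219.5 CPM. Kif20b (MPP1), which acts at the end of cytokinesis, stood at 192, 198 and 185 CPM. These genes kept the order Kif20a, Kif23, Kif20b in every library. Kif14, which binds the midzone protein PRC1 and citron kinase, was lower, at 91.3, 92.7 and 85.0 CPM. Per kb of exon Kif20a was the highest of all 40 kinesins, at 60.0 ± 0.677 CPM per kb. Kif23 stood at 28.3 ± 0.495 CPM per kb and Kif20b at 27.6 ± 0.943 CPM per kb, which with this length did not differ beyond their spread. Kif20a exceeded Kif23 by 1.08 ± 0.02 on the log2 scale (2.12-fold), but 1.16-fold without length correction and 1.08-fold with the longest coding transcript, so the size of this lead depends on the length used. Kif20a exceeded Kif20b 2.18-fold, 1.36-fold without length correction and 2.06-fold with the longest coding transcript. The near match of Kif23 and Kif20b therefore also depends on the length. Kif23 exceeded Kif14 by 1.71 ± 0.04 (3.28-fold), and 6.58-fold with the longest coding transcript. The Kif20a exons overlap those of the antisense neighbour Cdc23 over 29.3% of their length in GENCODE M21, and the strand setting of the authors' counting is not given in the sources used here.

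Transport kinesins ranged from Kif5b, the highest of the 40 members in CPM and next after Kif20a per kb of exon, to Kif1a with 0 counts. The rank of Kif5b per kb depends on the length used. Kif5b, the ubiquitous kinesin-1 heavy chain, stood at 342, 348 and 343 CPM in C1, C2 and C3, above 95.8% of the genes at 1 CPM or more. Its paralogs, known chiefly from neurons, were close to the floor. Kif5c stood at 0.964, 1.42 and 1.20 CPM and Kif5a had 0, 14 and 18 counts. Kif5b exceeded Kif5c by 8.01 ± 0.25 on the log2 scale per kb (258-fold). Of 5 neuron markers 0 reached 1 CPM, Rbfox3, Snap25, Syt1 and Stmn2 had 0 counts, and the list's summed level was 0.397, 0.433 and 0.567 CPM.

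The kinesin-3 family moves vesicles and endosomes and was led by Kif1c. Kif1c, a fast carrier of dense-core vesicles and integrins, stood at 209, 206 and 217 CPM in C1, C2 and C3. Kif1b, whose isoforms carry mitochondria and synaptic vesicle precursors, stood at 126, 140.3 and 128 CPM. Kif1c exceeded Kif1b in every library, by 1.96 ± 0.11 on the log2 scale per kb (3.88-fold), which was 1.60-fold without length correction and 2.46-fold with the longest coding transcript. Kif1a, the neuronal carrier of synaptic vesicle precursors, had 0 counts, so that Kif1b was at least 394-fold higher per kb and at least 743-fold without length correction. Kif16b, a carrier of early endosomes, stood at 44.7 ± 2.36 CPM, and Kif13a, which positions recycling endosomes, at 44.2, 44.8 and 42.7 CPM. Kif13b stood lower, at 11.9, 12.6 and 12.3 CPM, and lay below Kif13a by 2.53 ± 0.05 on the log2 scale per kb and by 1.84 without length correction.

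The kinesin-2 genes encode the heterotrimeric motor of intraflagellar and intracellular transport. Kif3a stood at 46.2, 53.5 and 44.5 CPM, Kif3b at 56.7, 59.6 and 56.8 CPM and Kif3c at 41.9, 41.4 and 43.4 CPM in C1, C2 and C3. In CPM the order was Kif3b, Kif3a, Kif3c in every library. Per kb Kif3a lay above Kif3b by 0.38 ± 0.10 on the log2 scale, so the order of these subunits depends on the length correction; without it the difference was -0.27 ± 0.10. Kif3b exceeded Kif3c by 0.84 ± 0.07 (1.79-fold), and 40.7% of the Kif3c exon length lies under exons of antisense genes. Kif17, the homodimeric kinesin-2 of dendrites and cilia, had 3, 4 and 2 counts. Of 14 intraflagellar transport genes all reached 1 CPM, against 33.8% of all rows, and none exceeded 100 CPM, against 20.1% of the genes at 1 CPM or more. Ift80 (37.4 ± 1.51 CPM), Ift52 (35.3 ± 0.956 CPM) and Ift46 (33.5 ± 1.64 CPM) were highest in CPM. Per kb Ift20 was highest, at 14.1 ± 0.305 CPM per kb, and Ift80 stood at 3.01 ± 0.122 CPM per kb.

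Kif21a, a kinesin-4 that slows microtubule growth at the cell cortex, stood at 37.6, 37.7 and 37.5 CPM in C1, C2 and C3, and its paralog Kif21b at 3.63, 6.04 and 4.12 CPM. Kif21a exceeded Kif21b by 3.97 ± 0.38 on the log2 scale per kb (15.7-fold), and 8.35-fold without length correction. Kifc3, a minus-end directed motor at the Golgi and at adherens junctions, stood at 70.8, 64.6 and 71.8 CPM, against 0.113, 0.209 and 0.252 CPM for Kifc2, a 255-fold ratio per kb. Exons of antisense genes cover 27.5% of the Kifc3 exon length.

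In the remaining class Kif2a was the only member above 20 CPM, at 73.8, 78.7 and 71.0 CPM in C1, C2 and C3. Kif24, which restrains cilium formation at the mother centriole, stood at 19.1, 17.6 and 15.5 CPM, highest in C1 and lowest in C3. Kif7, the regulator of GLI factors at the cilium tip, stood at 12.6, 13.4 and 12.3 CPM, and its paralog Kif27, known from motile cilia, had 8, 26 and 15 counts. Kif7 exceeded Kif27 by 5.20 ± 0.27 on the log2 scale per kb (36.7-fold). Kif9 (0.794, 0.656 and 0.631 CPM) and Kif26b (0.737, 0.552 and 0.799 CPM) stayed below 1 CPM in every library, and Kif26a had 0, 1 and 3 counts. Kif6, Kif12 and Kif19a had 0 counts. Exons of antisense genes cover 20.3% of the Kif7 exon length, 19.2% of that of Kif2a and 15.1% of that of the mitotic Kif4. Of the multiciliated cell markers in the table only Foxj1 reached 1 CPM, at 3.74, 5.10 and 4.29 CPM, and Tekt1 had 0 counts.

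The median of the mitotic class lay above that of the transport class in all 3 libraries. The median mitotic member stood at 22.5, 22.5 and 21.9 CPM per kb in C1, C2 and C3, against 5.47, 5.54 and 5.27 CPM per kb for the median transport member. On the scale log2(CPM per kb + 0.1) the class medians differed by 2.02, 2.00 and 2.03, or 2.02 ± 0.02 over 3 libraries, a 4.05-fold difference on that scale. The difference was 1.76 ± 0.05 when only members at 1 CPM or more were kept and 1.35 without length correction. The classes overlapped, since Kif5b and Kif1c lay above the median mitotic member in every library. Per kb of exon, of the 13 mitotic members only Kif20a lay above the whole transport range. In CPM no mitotic member did, because Kif5b was highest. Kif11 and Kif5b, which lead the counts of the mitotic and the transport class, differed by -0.08 ± 0.05 on the log2 scale per kb, and the sign of this difference turned with another choice of transcript length (0.14). Which mitotic members lie above the transport range therefore depends on the length used. Mitotic members took 59.7% ± 0.34 of all kinesin counts, transport members 36.5% ± 0.44 and the other members 3.71% ± 0.13. After division by exon length these shares were 65.0% ± 0.30, 31.3% ± 0.34 and 3.78% ± 0.15. No test was made of the class difference, because members are not replicates and the smallest p that an exact sign-flip test (two-sided) of 3 values allows is 0.25. In bulk libraries the share of cells in mitosis and the RNA per cell cannot be told apart.

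**Figure D2:**
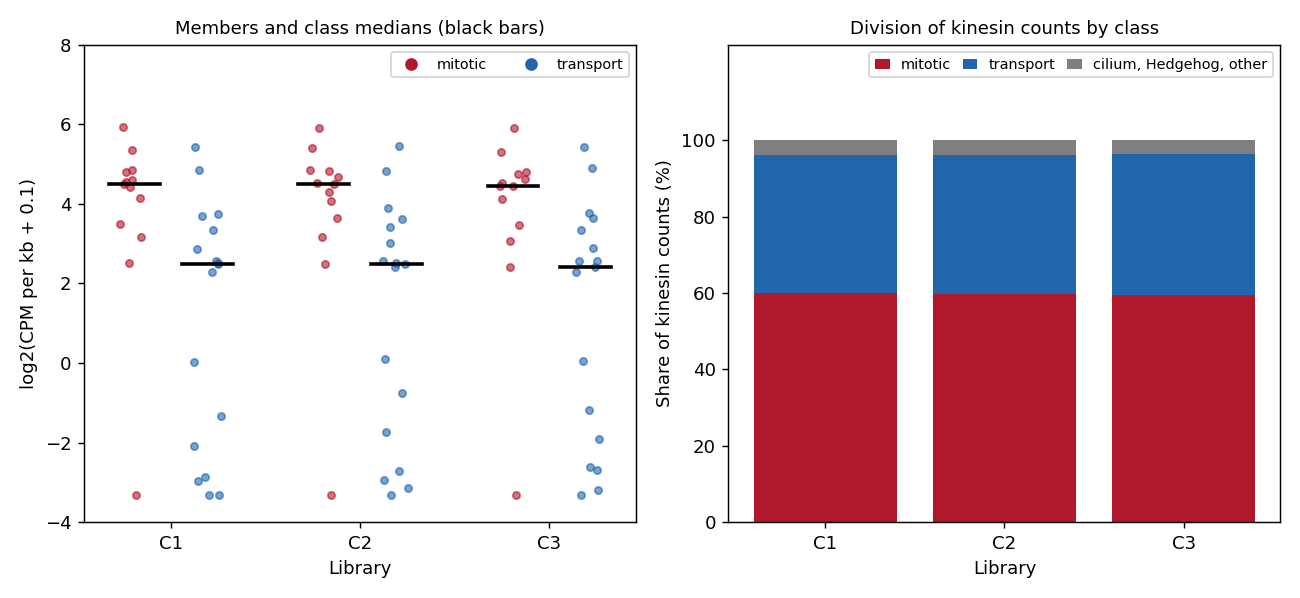
Left, log2(CPM per kb + 0.1) of each mitotic and transport kinesin in each library, with black bars at the class medians. Right, the percentage of kinesin counts taken by each class per library. The medians lie 2.00 to 2.03 apart in the 3 libraries and the mitotic share lies between 59.4% and 60.1%.

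Promoter sequence was looked at next, because many late cell-cycle genes carry the cell cycle genes homology region (CHR), an element whose usual letters are TTTGAA, near their start site. RefSeq windows from 250 bases before to 50 bases after a transcription start (build GRCm38.p6) were found for 32 of the 40 members. TTTGAA on either strand occurred in the windows of 10 of 12 mitotic members, 1 of 11 transport members and 2 of 9 others. Of all 32851 windows 17.9% held it, and counted by gene 20.2% of all 27025 genes with a window did. Of the 11700 genes at 1 CPM or more 7870 had a window, and 13.8% of these 7870 held it. The 10 mitotic genes were Kif11, Kif14, Kif15, Kif18b, Kif20b, Kif22, Kif23, Kif2c, Kif4 and Kifc1, and Kif18a and Kif2b had no match. Kif20a is not among the 12. Kif5b, the highest kinesin in CPM, is not among the 11 transport members, and neither are Kifc3, Kif13b, Kif21b, Kif5a and Kifc2. The transport gene was Kif1a, which had 0 counts, and the match lay in 1 of its 2 windows. With the window narrowed to matches that start from base -40 to base 20, limits chosen after the positions were seen, 8 of 12 mitotic genes, 0 of 11 transport genes and 1 of 9 others (Kif26b) remained, against 2.38% of the 7870 genes. The variant TTCGAA occurred in no mitotic or transport window and in that of Kif24. It was held by 1.56% of all windows, 1.8% of the 27025 genes and 2.63% of the 7870 genes. CCAAT boxes, read as CCAAT on either strand, occurred for 8 of 12 mitotic and 3 of 11 transport genes, against 44.0% of the 7870 genes. A match describes letters in a window and shows no binding.

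Short stretches around the match nearest the start are shown for the 8 mitotic genes, with a transport gene for comparison, because the windows of more mitotic than transport genes held the hexamer, a difference that was not tested. Each is written 5′ to 3′ on the strand of the gene, the capitals mark TTTGAA or its reverse complement TTCAAA, and bases are numbered from the RefSeq start (-1 is the base before it, 1 the start itself).
Kif11 (chr19:37376351-37376380, plus strand, bases -31 to -2): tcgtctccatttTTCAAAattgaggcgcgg
Kif15 (chr9:122951050-122951079, plus strand, bases -31 to -2): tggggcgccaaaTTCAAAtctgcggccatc
Kif22 (chr7:127042420-127042449, minus strand, bases -29 to 1): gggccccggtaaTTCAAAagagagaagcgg
Kif18b (chr11:102925104-102925133, minus strand, bases -9 to 21): cggaccggctagTTTGAAcgcgccgcgccg
Kif20b (chr19:34922353-34922382, plus strand, bases -5 to 25): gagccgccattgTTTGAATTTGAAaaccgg
Kif23 (chr9:61946780-61946809, minus strand, bases -10 to 20): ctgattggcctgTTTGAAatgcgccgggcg
Kif4 (chrX:100626072-100626101, plus strand, bases 8 to 37): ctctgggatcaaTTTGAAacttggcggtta
Kifc1 (chr17:33890615-33890644, minus strand, bases -11 to 19): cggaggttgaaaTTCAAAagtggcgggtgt
Kif3c, no match (chr12:3365102-3365131, plus strand, bases -30 to -1): ccagcatgctcgggttcggtggggtgacgg

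Kif11 and Kif15, which share the task of keeping spindle poles apart, both had the match on the strand opposite to the gene and at the same distance, base -19, and in Kif22 it began at base -17. Kif20b held a pair of adjacent matches. In the windows of Kif2c and Kif14 the matches lay farther upstream, at bases -103 and -228. Kif1c, the highest transport gene among those with a window, had neither TTTGAA nor CCAAT in its window.

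**Figure D3:**
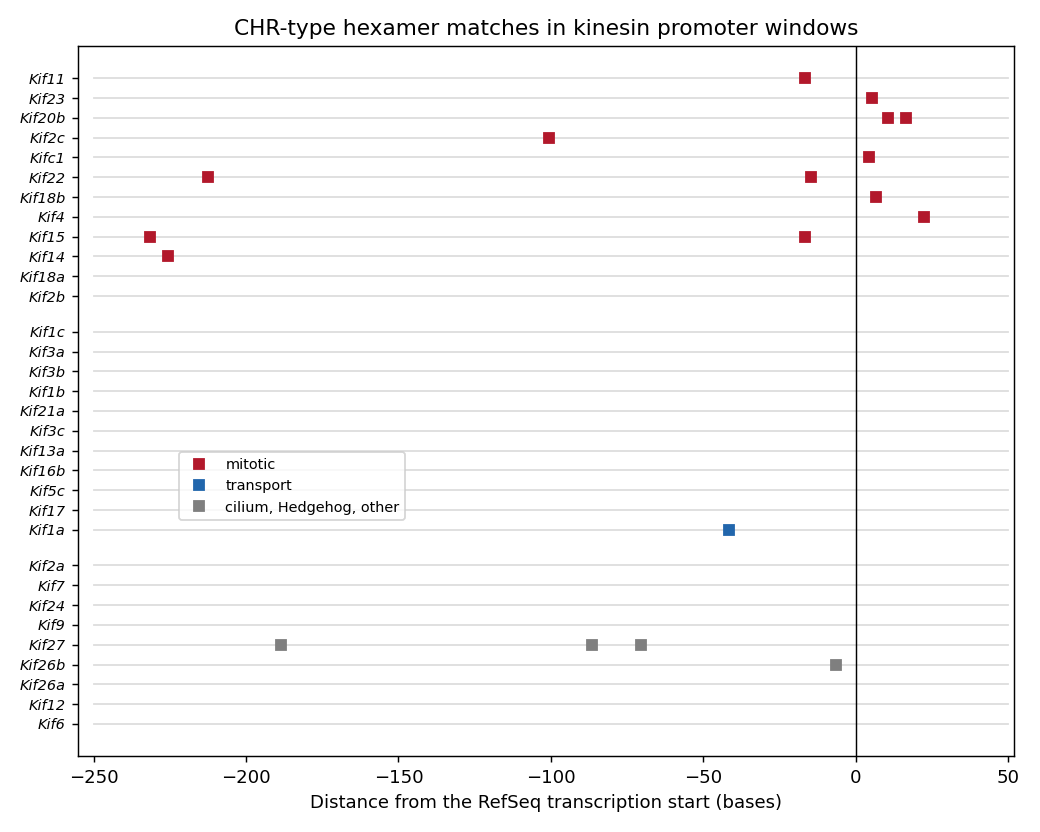
Positions of the CHR-type hexamer, on either strand, in the RefSeq windows of 32 kinesins, as distance in bases from the transcription start (vertical line). Squares are matches, and genes run from high to low level within each class. Of the mitotic genes 8 of 12 have a match between base -40 and base 20, limits chosen after the positions were seen, against 2.38% of the genes at 1 CPM or more with a window.

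Genes that work with mitotic kinesins were at high levels in CPM. Of 20 partners and regulators all reached 1 CPM, against 33.8% of all rows. The level of 100 CPM was exceeded by 18, against 20.1% of the genes at 1 CPM or more. The highest were Ect2, the exchange factor that centralspindlin recruits to start furrowing (326 ± 29.0 CPM), Prc1, which bundles midzone microtubules (309.9 ± 6.24 CPM), and Racgap1, the other subunit of centralspindlin (290.3 ± 7.50 CPM). Ect2 was lowest in C3, at 337, 348 and 294 CPM in C1, C2 and C3. Cenpe, a kinesin-7 motor of kinetochores whose symbol falls outside the rule for members, stood at 244, 268 and 243 CPM. Its level of 29.2 ± 1.61 CPM per kb placed it among the upper mitotic members.

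Among 17 light chain and adaptor genes, 15 reached 1 CPM, against 33.8% of all rows, and 2 of the 15 exceeded 100 CPM, against 20.1% of the genes at 1 CPM or more. The highest were Klc1, a light chain through which kinesin-1 holds its cargo (155 ± 10.1 CPM), the adaptor Fez2 (147 ± 6.44 CPM) and Arl8b, a small GTPase that links lysosomes to kinesin-1 (96.2 ± 2.71 CPM). Of 17 genes of dynein, the minus-end directed motor, and its regulators 16 reached 1 CPM and 8 of the 16 exceeded 100 CPM, against the same 33.8% and 20.1%. In CPM they were led by the heavy chain Dync1h1 (522 ± 39.7 CPM), Pafah1b1 (353 ± 5.48 CPM) and the light chain Dynll1 (233 ± 3.47 CPM). The intermediate chain Dync1i1 had 0 counts. Per kb Dynll1 was highest, at 59.8 ± 0.891 CPM per kb, and Pafah1b1 stood at 36.7 ± 0.570 CPM per kb. Per kb Dync1h1 stood at 33.4 ± 2.53 CPM per kb, between Kif11 (40.7 ± 1.64 CPM per kb) and Kif1c (29.0 ± 0.722 CPM per kb). Of 12 tubulin genes 11 reached 1 CPM, against the same 33.8%. In CPM they were led by Tubb5 (2239.5 ± 40.7 CPM), Tuba1b (1812 ± 48.8 CPM) and Tuba1c (699.5 ± 20.1 CPM). Per kb Tuba1b (966 ± 26.0 CPM per kb) lay above Tubb5 (673 ± 12.2 CPM per kb). Tubulin paralogs are similar enough that the authors' counting could divide reads among them.

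**Figure D4:**
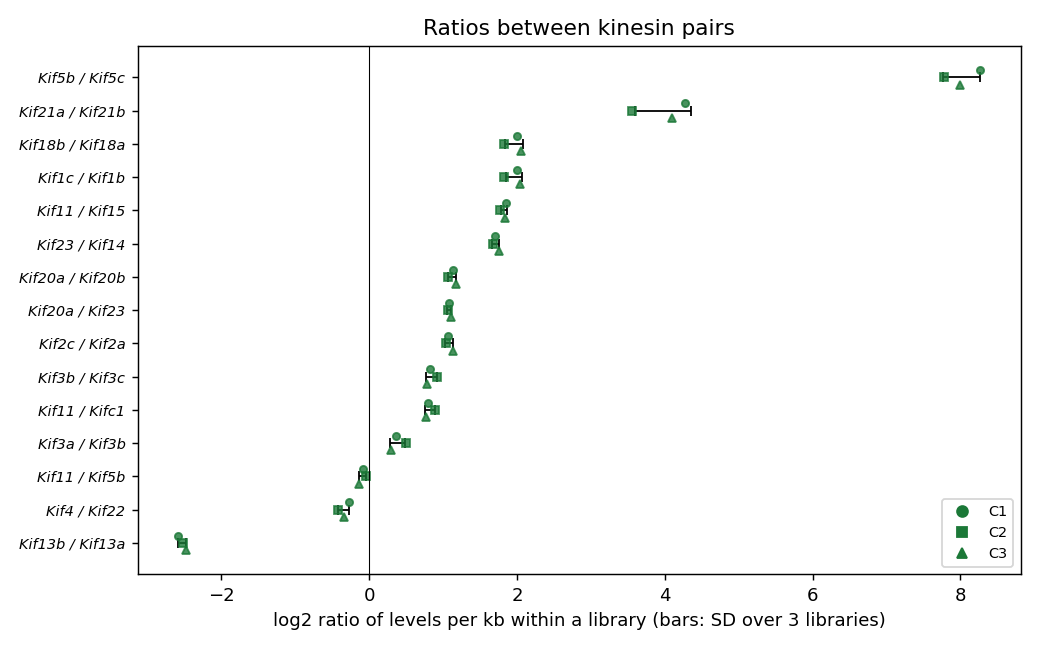
Ratio of the first to the second gene of 15 kinesin pairs within each library, on the log2 scale per kb of exon, with points for the libraries and bars for the SD over 3 libraries. Only pairs whose second gene had over 100 counts in all are drawn. Kif5b over Kif5c is highest at 8.01 ± 0.25, and Kif13b over Kif13a is lowest at -2.53 ± 0.05.

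The coefficient of variation over the 3 libraries had a median of 3.42% over the 27 kinesins at 1 CPM or more, against 4.95% over all 11700 such genes. These medians were not matched for level, and 10 of the 27 kinesins exceeded 100 CPM, against 20.1% of all such genes. In the edgeR quasi-likelihood F test, which sets the spread of a gene against genes of similar level, 0 of the 31 kinesins tested passed an adjusted p of 0.05, against 0.0691% of all 13026 genes tested, and 1 had an unadjusted p under 0.05 (3.23%), against 671 of all genes (5.15%). At such shares 0 of 31 says nothing particular about kinesins. A fit with a robust prior passed 0 of all 13026 genes tested, so its count of 0 kinesins was bound to follow. The 1 gene was Kif21b (unadjusted p = 0.0196, adjusted p = 0.806), which stood at 3.63, 6.04 and 4.12 CPM in C1, C2 and C3.

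Counting noise alone was exceeded by 13 of the 31 kinesins (Poisson dispersion test on TMM-scaled libraries from edgeR, adjusted p under 0.05), against 39.3% of all genes tested, so the family's share was near that of all genes. The 13 were 5 mitotic members beside 6 transport members and Kif24 and Kif2a. Kif15 (adjusted p = 5.2e-11 in this test on edgeR-scaled counts), Kif11 (2.2e-10), Kif3a (7.25e-10) and Kif1b (3.25e-08) had the strongest departures, and all 4 were highest in C2. Kif18b (1.14e-06) and Kifc3 (2.27e-05) were lowest in C2. Kif5b and Kif20a, despite their high counts, did not pass, with adjusted p of 0.538 and 0.495 in the same test on edgeR-scaled counts. The count depended on C2 and C3, the deeper libraries: without C2 only Kif24 passed (13.8% of all genes), without C3 7 members passed (12.9%) and without C1 14 did (36.8%).

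Relative to the mean of each gene, C2 was the highest library for 17 of the 27 kinesins at 1 CPM or more, against 34.9% of all genes at that level. C2 was the lowest library for 7 of the 27, against 34.7%. C3 was highest for 3, against 35.6%. C3 was the lowest library for 6 of 12 mitotic members, against 35.9% of all genes, and the highest for 0. The mitotic members were highest in C1 for 6, against 29.5% of all genes, and in C2 for 6, against 34.9%. Of the 12 transport members C1 was lowest for 6, against 29.5% of all genes. C2 was highest for 9 of them and C3 for 3. The median deviation over the 27 kinesins was -0.01 in C1, 0.04 in C2 and -0.03 in C3 on the log2 scale, and over all 11700 genes it lay between -0.0002 and 0.0008. The largest ratios of highest to lowest library were 1.66 for Kif21b, 1.23 for Kif24 and 1.20 for Kif3a. The 27 kinesins share their libraries, so their directions in C2 count together as 1 observation.

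**Figure D5:**
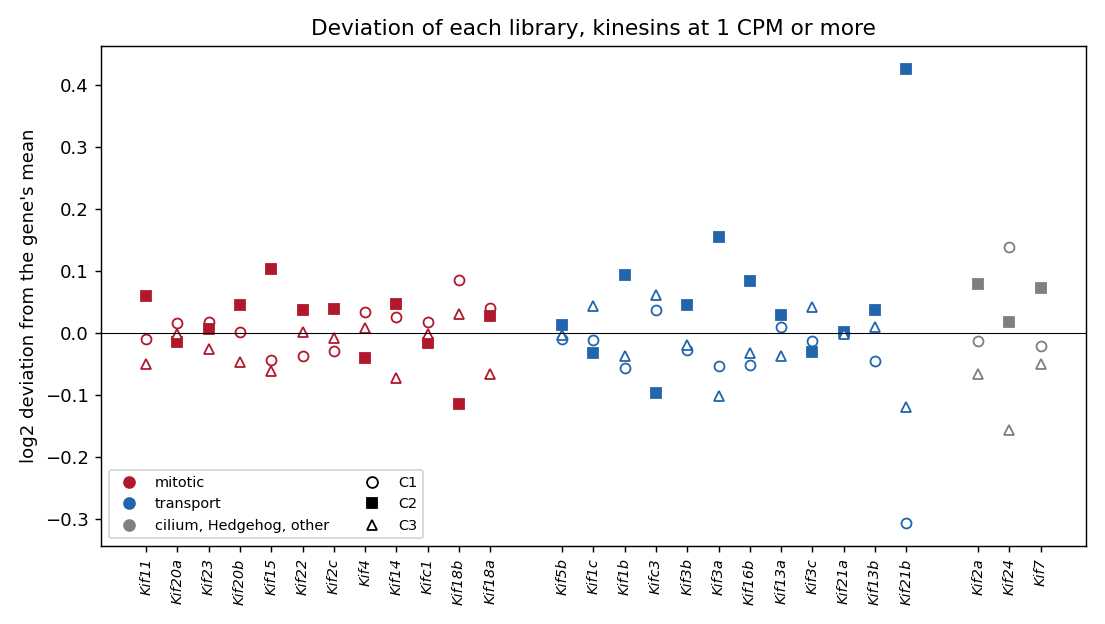
Deviation of each library from the mean of the gene on the log2 scale, for the 27 kinesins at 1 CPM or more, with TMM-scaled CPM and 1 point per library, ordered by mean CPM within each class. Filled squares are C2. Apart from Kif21b, all points lie within about 0.16 of the mean.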

How the data were processed

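Whole-number read counts per gene symbol and library were deposited by the authors without normalization, as their values also show. CASAVA 1.7, BWA, STAR, HTSeq and the build mm9 are named without role or order, per the submitters' processing notes. RNA was made into libraries with the TruSeq stranded mRNA kit, per the labels' protocols. No source used here gives the annotation or how strand and multiply matching reads were treated. The columns match no sample title and were assigned to the group as a whole, since every sample description names this 1 table.

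CPM used library totals. The value of 1 marker gene is not reported here. Exon lengths are merged exons of GENCODE M21, which is on another build than mm9, so it was used for lengths, overlaps and shared sequence only; all 40 members had a length. Ratios had 0.5 counts added. Spread was fitted over all genes with edgeR 4.0.16 (R 4.3.3), TMM scaling, filterByExpr (13026 genes) and an intercept-only model, with Benjamini-Hochberg adjustment, and the steps were tested on simulated data. Of the 40 members 31 passed this filter.

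The members, role classes, pairs and lists were chosen with earlier results of these data known. Per-library values are given by rule for the 6 highest mitotic and transport members, the highest of each role and the members of 22 pairs. The rule also covers the 3 members with the largest ratio between libraries. Values of Kif9 are given outside this rule.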

Additional observations from a re-analysis of the deposited data

How the results depend on the processing

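The detection counts (27 kinesins, 12 mitotic, 12 transport) stayed within 1.5 times under thresholds of 0.5 and 5 CPM, TMM scaling and the omission of each library, and no kinesin passed the F test under any setting run. The mitotic share of kinesin counts (59.7%) was 65.0% with exon lengths, 69.7% with the length of the longest coding transcript (an alternative chosen after seeing the data) and 63.0% with Kif2a and Kif24 as mitotic. Leaving out 1 library gave 59.6% to 59.9%. The mitotic minus transport difference (2.02) was 1.35 without length correction, 1.92 with Kif2a and Kif24 as mitotic, 1.86 with a pseudocount of 1, 1.76 over members at 1 CPM or more and 2.42 with the longest coding transcript, and 2.01 to 2.03 with 1 library left out. The F test called 9 genes in all, 14 with library size only, 171 without a filter and 0 with a robust prior (588 at an unadjusted p under 0.05), and 3 to 52 with 1 library left out. The Poisson test called 5118 genes, and 1667 to 4908 with 1 library left out; for kinesins it called 13, and 1 to 14. The cause of these shifts was not tested. An omission also leaves fewer libraries and counts, which cannot be told apart here from a difference of the omitted library. Of the 22 pair ratios 2 turned round, Kif3a to Kif3b without length correction (-0.27) and Kif11 to Kif5b, main value -0.08, with the longest coding transcript (0.14). Of the 20 pairs with a count for the second gene, 11 moved by over 1.5-fold under one or both length choices. With 1 library left out or TMM scaling, the level of each named kinesin averaging 1 CPM or more moved by at most 1.19-fold, while Kif17, Kif26a and Kif5a, at few counts, moved by up to 3.48-fold. No paired analysis was possible because the columns carry no replicate numbers of the labels and there is only 1 group. Depth limits statements on members at 0 counts to levels above 3 counts per library, and 6 members with over 10% of exon length under antisense exons (Kif20a, Kif2a, Kif3c, Kif4, Kif7, Kifc3) depend on the strand setting of the counting.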

Other observations

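Levels of direct binding partners were set beside each other per kb of exon, for pairs chosen after their values were seen. Kif23 lay below Racgap1, with which it forms centralspindlin, by 0.53 ± 0.01 on the log2 scale in 3 of 3 libraries. Kif4 lay below Prc1, which it binds at the midzone, by 1.13 ± 0.06, and Kif11 below Tpx2, which targets it to spindle microtubules, by 0.52 ± 0.01; without length correction Kif11 exceeded Tpx2 by 0.16. Kif3a and Kif3b lay below Kifap3, the other subunit of their complex, by 0.35 ± 0.10 and 0.74 ± 0.07. Kif5b exceeded Klc1 by 0.18 ± 0.11, and by 1.15 without length correction, while the summed level of the 4 light chain genes was 57.0 ± 3.50 CPM per kb against 43.3 ± 0.42 CPM per kb for the 3 kinesin-1 heavy chain genes. That order turned without length correction, with 224 ± 13.7 CPM for the light chains against 346 ± 3.31 CPM for the heavy chains. Stard9, a kinesin of the kinesin-3 type outside the rule for members, stood at 11.1 ± 1.26 CPM.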
